A study of Mus musculus with 10 samples.

Results

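The genes described are 32 genes of the unfolded protein response and the amino acid stress response, chosen by name from a fixed list and read out as 1 probe set per gene, the one with the highest mean log2 value over the 10 samples. All 32 were measured, out of 18193 genes in all. They were measured in mouse acute lymphoblastic leukaemia cells, sorted on green fluorescent protein from the bone marrow of transplanted mice, with 1 array for each of 10 animals. The allogeneic group was leukaemia from 5 C57BL/6 recipients of C3.SW marrow and spleen cells, and the syngeneic group was leukaemia from 5 C57BL/6 recipients of C57BL/6 marrow and spleen cells. C3.SW mice share the major histocompatibility type of C57BL/6 mice and differ from them in minor antigens. In both groups the recipients had received total body irradiation and 5-fluorouracil, and the leukaemia, named NSTY ALL in the labels, was of C57BL/6 background, carried human p210 bcr/abl and had a deletion of the Ink4a/Arf locus. The leukaemia was infused together with the donor cells, recovered by flow cytometry after 2 to 3 weeks and passed on, and RNA was made after 3 serial transplants. Not given in the sources used here are the animals' age and sex, the construct that carries the fluorescent marker, and whether recipients of a group drew on 1 earlier recipient's leukaemia, so p-values cover only how far these animals differ.

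A cell that folds more protein than its endoplasmic reticulum can handle starts the unfolded protein response. The sensors IRE1 (encoded by Ern1), PERK (Eif2ak3) and ATF6 then switch on chaperones, folding enzymes and the removal of misfolded protein. PERK acts by phosphorylating the translation factor eIF2 alpha, which favours translation of the transcription factor ATF4, and the kinase GCN2 (Eif2ak4) reaches the same point when amino acids run short. ATF4 in turn drives genes for amino acid synthesis and import and, through CHOP (Ddit3), genes linked to cell death. In B-lineage cells the Xbp1 arm is best known for its part in plasma cell secretion.

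The 10 arrays had between 11224 and 13094 genes above a background limit, which was the 95th percentile of 27 bacterial control probe sets on each array. Gapdh control signal at the 3' end over that at the 5' end, which grows as RNA degrades, was 1.39 to 1.57 on the allogeneic and 1.48 to 1.59 on the syngeneic arrays. Of 12 measured B-lymphoid progenitor markers, 11 were above background on all 10 arrays, among them Cd79a, Vpreb1, Igll1 and Il7r, and Pax5 was above it on 6 of 10. Levels below are log2 intensities after quantile normalization, and differences are allogeneic minus syngeneic on that log2 scale, so a difference of 1 is a doubling. A gene passed the test at a Benjamini-Hochberg adjusted p under 0.05 over all 18193 genes in limma. By that rule 0.583% of all genes passed, 0.506% higher and 0.0770% lower.

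None of the 32 genes rose or fell by limma, where 0.583% of all genes passed. The exact permutation test, whose smallest possible p is 0.00794 here, passed 0 of all genes after adjustment. Its 0 of 32 therefore adds nothing to the limma result. By that test 6 of 32 had an unadjusted p under 0.05, against 16.9% of all genes. At an unadjusted limma p under 0.05, 2 of 32 (6.25%) were higher and 0 were lower, against 16.9% of all genes in either direction, 9.47% higher and 7.40% lower. No gene of the 32 had groups that did not overlap, against 4.83% of all genes. The 32 differences had a median of 0.03, beside 0.01 over all genes, with 17 positive and 15 negative. In the plot of differences, 22 of the 32 95% intervals lay within a 1.5-fold change either way, against 29.3% of all genes, and 29 lay within a 2-fold change, against 63.2% of all genes. The 3 exceptions to the wider range were Atf3, Ern1 and Slc7a11, of which Atf3 had the largest difference and Slc7a11 was near background. These shares compare unlike sets, since 30 of the 32 were above background on all 10 arrays, against 10455 of all 18193 genes. The median SD was 0.24 in the allogeneic and 0.17 in the syngeneic group for the 32, against 0.43 and 0.26 for all genes. The part of expression level in the interval widths was not tested. A p that misses the threshold does not show that the groups were alike, and the intervals give the sizes that these arrays leave possible.

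**Figure D1:**
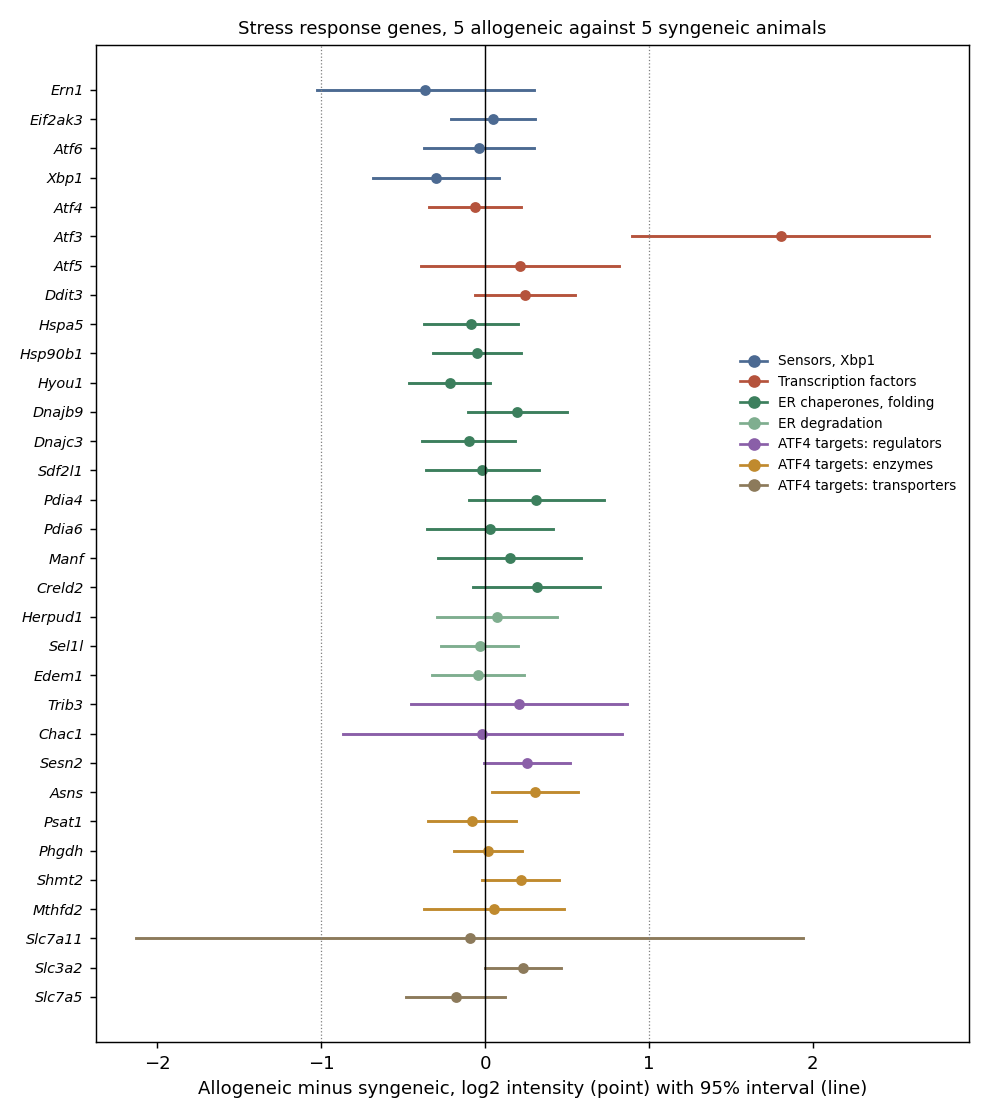
The 32 stress response genes are listed by role, with the allogeneic minus syngeneic difference in log2 intensity on the horizontal axis (point), its 95% interval from limma (line) and dotted lines at a 2-fold change. Only the Atf3 and Asns intervals lie wholly on 1 side of 0, and neither gene passed the test over all genes.

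The sensors came first in the order of the response. The nuclease sensor gene Ern1 differed by -0.36 (SE 0.30, 95% interval -1.03 to 0.30, adjusted p = 0.567), with levels of 7.19, 7.72, 7.63, 7.77 and 6.40 in allogeneic animals 1 to 5, against 7.67, 8.10, 7.63, 7.06 and 8.07 in syngeneic animals 1 to 5. The lowest of these 10 values, in allogeneic animal 5, and the highest, in syngeneic animal 2, lay far apart, and the groups overlapped widely. Eif2ak3, the gene of the kinase PERK, differed by 0.05 (SE 0.11, 95% interval -0.21 to 0.31, adjusted p = 0.861), and Atf6, the gene of the membrane-bound transcription factor, by -0.04 (SE 0.15, 95% interval -0.37 to 0.30, adjusted p = 0.930). With the probe sets used, both intervals lay within a 1.5-fold change. The other 2 Eif2ak3 probe sets, also above background on all 10 arrays, gave 0.38 and 0.63, and the mean over all 3 gave 0.35 (adjusted p = 0.370).

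Xbp1 encodes the transcription factor whose messenger RNA IRE1 splices. Its levels were 12.41, 12.91, 12.95, 12.59 and 12.30 in allogeneic animals 1 to 5, against 12.96, 13.05, 13.13, 12.52 and 12.98 in syngeneic animals 1 to 5. Syngeneic animal 4 stood well below the other 4 syngeneic animals, and all 5 allogeneic animals lay below those 4. The difference was -0.30 (SE 0.17, 95% interval -0.68 to 0.08, adjusted p = 0.409) and did not pass. All 4 probe sets of Xbp1 had a negative difference, between -0.42 and -0.06. Splicing of Xbp1 was not analysed here. Of 9 plasma cell markers, a list that includes Xbp1, 7 had a negative difference and 0 passed. Their summed linear signal was 21830 to 28216 in the allogeneic and 24865 to 29899 in the syngeneic animals. Most of that sum came from Xbp1 itself, Irf4 and Mzb1, so it partly repeats the Xbp1 difference. Jchain, the immunoglobulin joining chain, differed by -0.83 (adjusted p = 0.167). The 2 positive markers were Mzb1 at 0.15 and Derl3 at 0.19 (adjusted p = 0.489 and 0.692). The part of such cells in the Xbp1 difference was not tested.

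Among the transcription factors, Atf3 was the gene nearest to passing. It encodes a factor that is induced by ATF4 and also by other stress and cytokine signals. Atf3 read 7.81, 7.84, 7.07, 8.05 and 7.77 in allogeneic animals 1 to 5, against 4.62, 5.66, 5.84, 7.15 and 6.23 in syngeneic animals 1 to 5. Of the 25 pairs of an allogeneic and a syngeneic animal, 24 had the higher value in the allogeneic one, the exception being syngeneic animal 4 over allogeneic animal 3. The difference was 1.80 (SE 0.41, 95% interval 0.90 to 2.71, adjusted p = 0.0854), a 3.49-fold higher level with an interval of 1.87 to 6.54 fold. The exact two-sided permutation p of this difference was 0.0159, or 0.201 when adjusted over all genes, where the smallest p the design allows is 0.00794. Syngeneic animal 1 was not above background. Atf3 passed in limma with trend and robust settings (adjusted p = 0.0283), with array weights (0.0428) and without syngeneic animal 4 (0.0352), and it did not pass under the other 16 settings in which it was tested.

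Markers of other cells and of handling were set beside Atf3. In bulk samples more cells of a type and more RNA per cell cannot be told apart. Of 16 measured macrophage and monocyte markers 8 were positive and 0 passed. Their summed linear signal was 13305 to 14973 in the allogeneic and 9850 to 12079 in the syngeneic animals, without overlap. Of the 16, 8 were above background on all 10 arrays, and 2, among them Itgam, on none. Those 8 differed in sign. Positive were Mpeg1 (0.68), C1qc (0.55), Lyz2 (0.33) and Fcgr3 (0.21). Negative were Csf1r (-0.11), Cd68 (-0.19), Ccr2 (-0.41) and Mrc1 (-0.10). Most of the summed signal came from Mpeg1 and Fcgr3, the markers of highest level. Mpeg1 averaged 12.63 ± 0.40 in the allogeneic and 11.95 ± 0.34 in the syngeneic animals (SD, n = 5 each, limma adjusted p = 0.182). Fcgr3 averaged 12.46 ± 0.20 and 12.25 ± 0.18 in the same order (limma adjusted p = 0.469). Of 12 stroma and endothelium markers 12 were positive and 0 passed, but only 2 were above background on all 10 arrays and 2 never were. Their summed signal, mostly from Pecam1, was 859 to 1125 in the allogeneic and 668 to 856 in the syngeneic animals. Dendritic cell markers were positive for 7 of 9 (median 0.47), NK cell markers for 6 of 9 (0.27), granulocyte markers for 9 of 11 (0.17) and T cell markers for 6 of 10 (0.12), while plasma cell markers were positive for 2 of 9 (-0.15) and erythroid markers for 3 of 7 (-0.03), and 0 of these passed. Never above background were 3 of the 9 dendritic cell, 5 of the 9 NK cell, 1 of the 11 granulocyte, 2 of the 10 T cell, 0 of the 9 plasma cell and 2 of the 7 erythroid markers. On all 10 arrays, 4 of the 9 dendritic cell, 3 of the 9 NK cell and 5 of the 11 granulocyte markers were above background. So were 2 of the 10 T cell, 7 of the 9 plasma cell and 2 of the 7 erythroid markers. Immediate early genes, which answer handling as well as signals, had a median difference of -0.15 with 6 of 16 positive. Their part in the Atf3 difference was not tested.

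The other 3 factors differed by less. Atf4 had levels of 12.40, 12.88, 12.67, 12.94 and 12.70 in allogeneic animals 1 to 5 and 12.79, 12.86, 12.73, 12.63 and 12.89 in syngeneic animals 1 to 5. Its difference was -0.06 (SE 0.13, 95% interval -0.34 to 0.22, adjusted p = 0.846), and the groups overlapped throughout. The level of ATF4 protein is set mainly by translation, which an array does not measure. Ddit3 (CHOP) gave 9.85, 10.38, 9.85, 10.34 and 10.05 in allogeneic animals 1 to 5, against 9.84, 9.83, 9.95, 9.73 and 9.92 in syngeneic animals 1 to 5. Allogeneic animals 2, 4 and 5 stood above all syngeneic animals while animals 1 and 3 lay among the syngeneic values, and the difference was 0.24 (SE 0.14, 95% interval -0.06 to 0.55, adjusted p = 0.398). Atf5, a relative of ATF4 that answers mitochondrial and amino acid stress, differed by 0.22 (SE 0.27, 95% interval -0.39 to 0.82, adjusted p = 0.729), with allogeneic SD 0.57 and syngeneic SD 0.30.

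**Figure D2:**
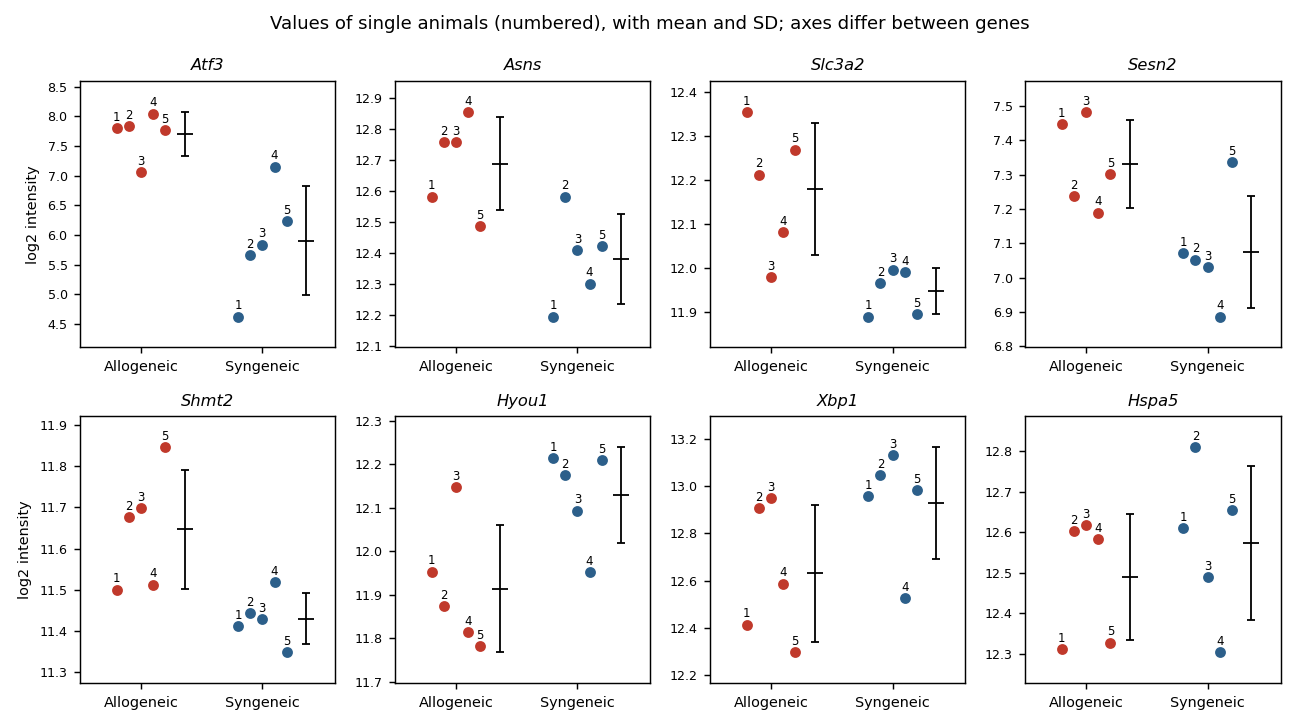
Log2 intensity is plotted for each animal (numbered points), with the mean and SD beside each group, for Atf3, Asns, Slc3a2, Sesn2, Shmt2, Hyou1, Xbp1 and Hspa5. Each panel has its own vertical axis, and in every panel the allogeneic and syngeneic values overlap.

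Promoter letters show what some of the chaperone genes share beyond their name. The window was 250 bases before to 50 bases from the start site in RefSeq (GRCm38.p6), which held 28 of the 32 genes (not Hyou1, Manf, Atf6 and Slc7a5). It was searched on both strands for the endoplasmic reticulum stress element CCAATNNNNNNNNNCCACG, at which ATF6 binds together with NF-Y. The element was found at 5 of the 11 chaperone, folding and degradation genes with a window (45.5%), those of Hspa5, Hsp90b1, Dnajc3, Pdia6 and Creld2, against 0.119% of 32851 promoters of the same length. The related element, ATTGG and CCACG 1 base apart, was found at Herpud1 (0.0365% of all promoters), and TGACGTG, the core of the XBP1 and ATF6 element, at Hspa5 (2.01%). No match overlapped another. The Hspa5 window (chr2:34771840-34772139, + strand) is printed whole because this gene is the standard reporter of the response, with TGACGTG and then the stress element in capitals, and the other genes are printed as the element with 20 bases on each side.
Hspa5: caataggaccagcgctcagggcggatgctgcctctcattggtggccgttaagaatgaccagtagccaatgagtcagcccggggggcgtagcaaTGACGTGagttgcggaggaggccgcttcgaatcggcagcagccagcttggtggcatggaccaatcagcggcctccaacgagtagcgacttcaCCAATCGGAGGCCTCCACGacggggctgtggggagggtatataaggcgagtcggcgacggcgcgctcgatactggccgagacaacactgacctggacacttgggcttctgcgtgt
Hsp90b1 (first of 2 elements, chr10:86705618-86705676, - strand): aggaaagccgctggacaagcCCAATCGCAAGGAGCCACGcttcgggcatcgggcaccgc
Pdia6 (chr12:17266471-17266529, + strand): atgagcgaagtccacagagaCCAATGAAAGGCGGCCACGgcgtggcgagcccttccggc
Dnajc3 (chr14:118937807-118937865, + strand): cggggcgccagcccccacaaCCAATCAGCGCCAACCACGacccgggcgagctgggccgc
Creld2 (chr15:88819500-88819558, + strand, element on the reverse strand): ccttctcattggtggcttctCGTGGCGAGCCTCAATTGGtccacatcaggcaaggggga
Herpud1 (chr8:94386357-94386407, + strand, related element): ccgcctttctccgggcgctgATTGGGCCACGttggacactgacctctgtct
A match is a run of letters and was not tested as a binding site. The genes were listed by name as parts of this response, so their share of matches is not an independent finding.

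The 10 chaperones and folding factors did not move one way. Their median difference was 0.01, with 5 positive and 5 negative, and 0 of 10 passed. Hspa5 encodes BiP, the main chaperone of the endoplasmic reticulum and the one that holds the sensors inactive. BiP message stood at 12.31, 12.60, 12.62, 12.58 and 12.33 in allogeneic animals 1 to 5, against 12.61, 12.81, 12.49, 12.30 and 12.65 in syngeneic animals 1 to 5. The lowest animals were allogeneic 1 and 5 and syngeneic 4, and the highest was syngeneic 2. The difference was -0.09 (SE 0.13, 95% interval -0.37 to 0.20, adjusted p = 0.780), so that a change of more than 1.5-fold in either direction lay outside the interval. Hsp90b1 (GRP94, the reticulum's HSP90) differed by -0.05 (SE 0.12, 95% interval -0.32 to 0.22, adjusted p = 0.874), and a second Hspa5 probe set above background gave -0.06.

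Hyou1 and Creld2 were the chaperone genes of smallest p, and they lay on opposite sides of 0. Hyou1, a large chaperone that also loads nucleotide onto BiP, had 11.95, 11.87, 12.15, 11.81 and 11.78 in allogeneic animals 1 to 5 and 12.21, 12.18, 12.09, 11.95 and 12.21 in syngeneic animals 1 to 5. Allogeneic animals 2, 4 and 5 lay below all syngeneic animals and 1 and 3 reached into their range, and the difference was -0.22 (SE 0.11, 95% interval -0.46 to 0.03, adjusted p = 0.361). For Creld2, a secreted folding factor, the levels were 11.00, 11.62, 11.42, 11.57 and 11.32 in allogeneic animals 1 to 5, against 11.04, 11.37, 10.92, 10.68 and 11.34 in syngeneic animals 1 to 5. Allogeneic animals 2, 3 and 4 were above every syngeneic animal, allogeneic animal 1 was below 3 of them, and the difference was 0.32 (SE 0.17, 95% interval -0.07 to 0.70, adjusted p = 0.390).

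Pdia4 and Dnajb9 followed in order of p. The disulfide isomerase gene Pdia4 showed 8.84, 9.30, 9.51, 9.63 and 9.22 in allogeneic animals 1 to 5, against 8.78, 9.41, 8.75, 9.11 and 8.89 in syngeneic animals 1 to 5. Allogeneic animals 3 and 4 exceeded all syngeneic values and animal 1 lay near the bottom of them, with a difference of 0.31 (SE 0.18, 95% interval -0.10 to 0.72, adjusted p = 0.419). With the mean over both of its probe sets the Pdia4 difference was -0.20, the other probe set being above background on 0 of 10 arrays. Dnajb9, a BiP co-chaperone that restrains IRE1, measured 10.94, 10.84, 11.21, 11.02 and 10.68 in allogeneic animals 1 to 5 and 10.55, 10.60, 10.97, 10.83 and 10.75 in syngeneic animals 1 to 5. Allogeneic animal 5 was below 3 of the 5 syngeneic animals, and the difference was 0.20 (SE 0.13, 95% interval -0.10 to 0.50, adjusted p = 0.484). The remaining 4 were Manf (0.15), a secreted factor of the reticulum, the isomerase Pdia6 (0.03), and the co-chaperones Sdf2l1 (-0.02) and Dnajc3 (-0.10), with adjusted p-values from 0.733 to 0.969.

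Degradation genes, which send misfolded protein to the proteasome, were close together in the groups. Herpud1, a scaffold of the degradation complex, was at 12.65, 12.18, 11.98, 12.18 and 12.63 in allogeneic animals 1 to 5, against 12.18, 12.25, 12.09, 12.57 and 12.17 in syngeneic animals 1 to 5. Allogeneic animals 1 and 5 and syngeneic animal 4 were the high ones, the same 3 animals that were lowest for Hspa5. The difference was 0.07 (SE 0.16, 95% interval -0.29 to 0.44, adjusted p = 0.863). Sel1l, the adaptor of the HRD1 ligase, differed by -0.03 (SE 0.10, 95% interval -0.27 to 0.20, adjusted p = 0.905), and Edem1, a lectin that draws glycoproteins into degradation, by -0.04 (SE 0.13, 95% interval -0.32 to 0.24, adjusted p = 0.899). All 3 intervals, for the probe sets used, lay within a 1.5-fold change. The other Edem1 probe set, above background on all 10 arrays, gave 0.32.

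Some of the ATF4 targets, also listed by name, carry another element. The letters TGATGNAA, the core at which ATF4 and C/EBP factors bind as a pair, were found on 1 strand or the other in the windows of 4 of 10 ATF4 target genes (Asns, Chac1, Slc7a11 and Trib3), of Atf3 and of Herpud1. That is 36.4% of the 11 ATF4 target windows, against 3.97% of all promoters, and no chaperone element was found in those 11. The windows of Asns (chr6:7693160-7693459, - strand) and Atf3 (chr1:191183284-191183583, - strand) are printed whole because these are the 2 genes of smallest p among the 32, and Chac1 is shown as the element with 20 bases on each side. Capitals mark the element, which reads on the reverse strand as TTGCATCA in Atf3 and Chac1.
Asns: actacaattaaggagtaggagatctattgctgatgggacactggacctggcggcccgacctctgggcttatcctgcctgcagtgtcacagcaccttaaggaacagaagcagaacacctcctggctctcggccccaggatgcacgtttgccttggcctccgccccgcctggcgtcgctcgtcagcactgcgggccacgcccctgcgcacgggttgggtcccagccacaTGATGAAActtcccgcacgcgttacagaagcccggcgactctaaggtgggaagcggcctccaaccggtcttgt
Atf3: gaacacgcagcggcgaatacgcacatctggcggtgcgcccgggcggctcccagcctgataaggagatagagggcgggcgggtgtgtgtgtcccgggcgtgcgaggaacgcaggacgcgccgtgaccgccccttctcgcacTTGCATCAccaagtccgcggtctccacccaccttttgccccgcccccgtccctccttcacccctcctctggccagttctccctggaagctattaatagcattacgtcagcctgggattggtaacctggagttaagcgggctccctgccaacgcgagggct
Chac1 (chr2:119351029-119351076, + strand): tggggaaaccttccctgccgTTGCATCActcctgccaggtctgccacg

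Of the 11 ATF4 targets 7 had a positive and 4 a negative difference, the median was 0.05, and 0 passed. Among the regulators, Trib3 and Chac1 were widely spread between animals. Trib3, a pseudokinase that restrains ATF4 and AKT, had 8.50, 9.30, 9.61, 9.69 and 8.22 in allogeneic animals 1 to 5 and 8.78, 9.07, 9.08, 8.51 and 8.85 in syngeneic animals 1 to 5. Allogeneic animals 2, 3 and 4 were above all syngeneic animals and 1 and 5 were below all of them, so that the difference of 0.21 (SE 0.30, 95% interval -0.45 to 0.87, adjusted p = 0.765) averaged opposite values. Chac1, which breaks down glutathione, had an SD of 0.82 in the allogeneic and 0.45 in the syngeneic group around means of 7.66 and 7.68. Its allogeneic values ran from 6.80 to 8.59.

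Sesn2, a leucine sensor that damps mTORC1, had tighter groups. Sesn2 measured 7.45, 7.24, 7.48, 7.19 and 7.30 in allogeneic animals 1 to 5, against 7.07, 7.05, 7.03, 6.89 and 7.34 in syngeneic animals 1 to 5. Only syngeneic animal 5 reached into the allogeneic range, and the difference was 0.26 (SE 0.12, 95% interval -0.01 to 0.52, adjusted p = 0.307). With the mean over both of its probe sets the difference was -0.21, since the other probe set, above background on 6 of 10 arrays, gave -0.67.

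The enzymes make asparagine, serine, glycine and one-carbon units. Asns, asparagine synthetase, was 12.58, 12.76, 12.76, 12.86 and 12.49 in allogeneic animals 1 to 5, against 12.19, 12.58, 12.41, 12.30 and 12.42 in syngeneic animals 1 to 5. Only syngeneic animal 2 reached into the allogeneic range, and 23 of 25 pairs had the higher value in the allogeneic animal. The difference was 0.31 (SE 0.12, 95% interval 0.04 to 0.57, adjusted p = 0.234), and a second probe set gave 0.39. For Shmt2, the mitochondrial serine hydroxymethyltransferase, levels were 11.50, 11.68, 11.70, 11.51 and 11.85 in allogeneic animals 1 to 5 and 11.41, 11.44, 11.43, 11.52 and 11.35 in syngeneic animals 1 to 5. Syngeneic animal 4 overlapped allogeneic animals 1 and 4 by a few hundredths, and the difference was 0.22 (SE 0.10, 95% interval -0.02 to 0.45, adjusted p = 0.327), with all 4 probe sets positive.

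Phgdh, the first enzyme of serine synthesis, had SDs of 0.07 in both groups. It gave 13.24, 13.35, 13.36, 13.21 and 13.36 in allogeneic animals 1 to 5, against 13.25, 13.37, 13.24, 13.20 and 13.36 in syngeneic animals 1 to 5. These values covered the same range, and the difference was 0.02 (SE 0.09, 95% interval -0.19 to 0.23, adjusted p = 0.939). The aminotransferase gene Psat1 differed by -0.08 (SE 0.12, 95% interval -0.35 to 0.19, adjusted p = 0.787) and Mthfd2, a mitochondrial folate enzyme, by 0.05 (SE 0.19, 95% interval -0.37 to 0.48, adjusted p = 0.920). Intervals of all 5 enzymes, for the probe sets used, lay within a 1.5-fold change. The other Psat1 probe set, above background on all 10 arrays, gave 0.20. The other Phgdh probe sets, also above background on all 10 arrays, gave 0.22, 0.21 and 0.04.

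Of the transporters, Slc3a2 and Slc7a5 encode the heavy and light chain of the LAT1 exchanger for large amino acids. Slc3a2 came to 12.356, 12.212, 11.980, 12.081 and 12.269 in allogeneic animals 1 to 5, against 11.889, 11.966, 11.996, 11.991 and 11.896 in syngeneic animals 1 to 5. The lowest allogeneic value, of animal 3, lay among the syngeneic ones, and the difference was 0.23 (SE 0.10, 95% interval -0.0015 to 0.47, adjusted p = 0.300). Its partner Slc7a5 was 12.03, 11.56, 12.16, 11.76 and 11.88 in allogeneic animals 1 to 5 and 12.10, 12.07, 11.87, 12.21 and 12.05 in syngeneic animals 1 to 5. Allogeneic animals 2 and 4 were below all syngeneic animals and the other 3 lay inside their range, with a difference of -0.18 (SE 0.14, 95% interval -0.48 to 0.12, adjusted p = 0.533). The 2 chains thus had differences of opposite sign, neither past the threshold. Slc7a11, the cystine importer, was above background on 1 of 10 arrays, that of allogeneic animal 1, and no fold is given.

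**Figure D3:**
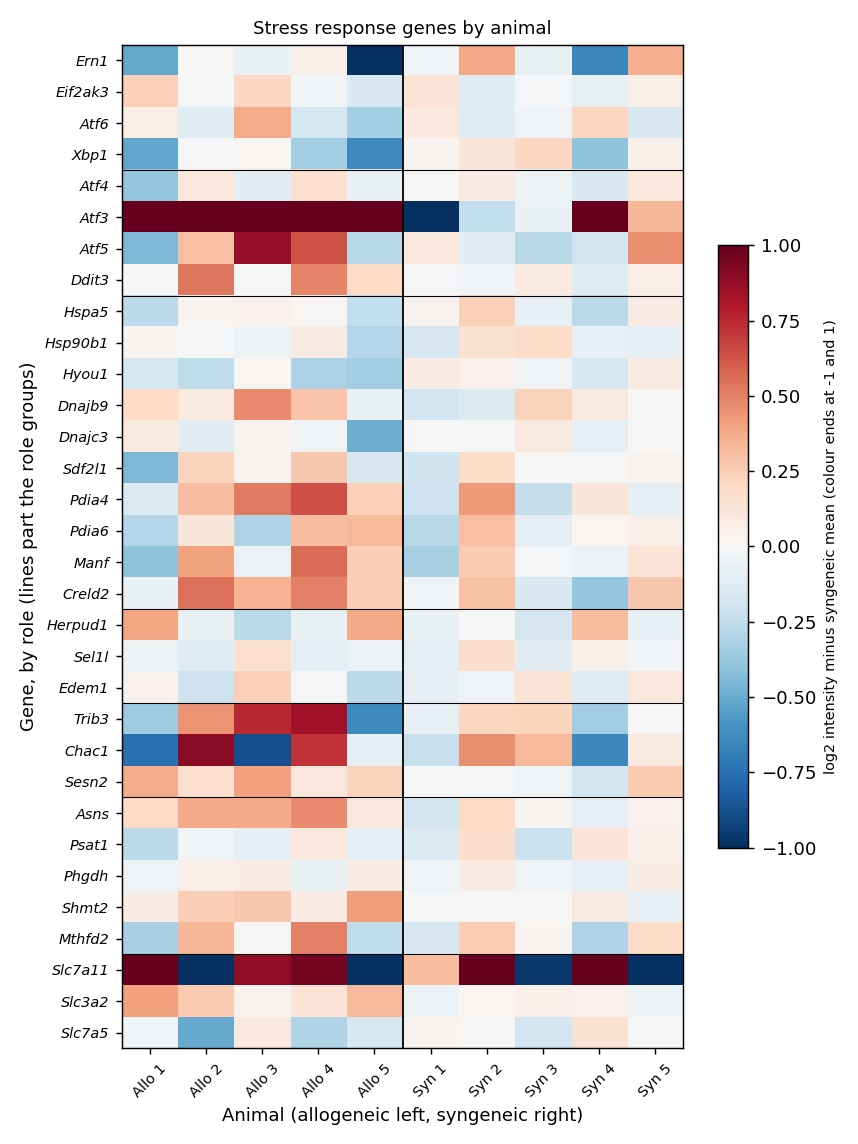
Each cell is 1 animal's log2 intensity for 1 gene minus that gene's syngeneic mean, with allogeneic animals left of the line and syngeneic animals right, and colour ending at -1 and 1. Atf3 is above its syngeneic mean in all 5 allogeneic animals, while Chac1, Trib3 and Manf differ in sign between allogeneic animals, and Slc7a11 is near background.

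The same animals often stood at the ends of their group. Over the 30 genes above background on all arrays, allogeneic animals 1 and 5 were each the lowest of their group for 11 genes, and allogeneic animals 3 and 4 the highest for 11 and 10. In the syngeneic group animal 4 was lowest for 14 genes and animal 2 highest for 13. Over the 10455 genes above background on all arrays, syngeneic animal 4 was lowest for 31.5% against 46.7% of the 30, and syngeneic animal 2 highest for 22.5% against 43.3%. Allogeneic animal 1 was lowest for 33.8% of all genes against 36.7% of the 30, and allogeneic animal 5 for 18.8% against 36.7%. Allogeneic animal 3 was highest for 21.7% against 36.7%, and allogeneic animal 4 for 15.7% against 33.3%. These shares are a description of 10 arrays. The median over the 10 chaperones, relative to the syngeneic mean of each gene, was -0.16, 0.11, 0.04, 0.28 and -0.11 in allogeneic animals 1 to 5, against -0.18, 0.21, -0.02, -0.07 and 0.05 in syngeneic animals 1 to 5. The same median over the 11 ATF4 targets was -0.03, 0.25, 0.11, 0.13 and -0.09 in allogeneic animals, against -0.06, 0.17, -0.0016, -0.08 and 0.04 in syngeneic animals. Each set of medians spanned 0 in the allogeneic group. The syngeneic medians lie around 0 because each gene's syngeneic mean was subtracted. For 24 of the 32 genes (75.0%) the SD was larger in the allogeneic group, as it was for 77.4% of all genes.

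Probe sets of 1 gene did not always go together. The 32 genes had 75 probe sets, and 23 genes had more than 1. Of the 33 unused probe sets above background on all arrays, 11 had the opposite sign to the one used. In a limma fit over 34945 probe sets, 0 of all 43 unused ones passed (5 at an unadjusted p under 0.05). The shares of all 34945 probe sets in that fit are not given here, so neither count is set against a background. For Ern1 the probe set used gave -0.36 and another above background gave 0.42. For Atf6 the values were -0.04 with the one used and 0.46 with another.

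Genes of the same pathways outside the 32 were read from 5 further lists of 102 measured genes. None of the 102 rose or fell by limma, where 0.583% of all genes passed, 12 (11.8%) had an unadjusted p under 0.05, against 16.9% of all genes, and their median difference was 0.0035. Among 35 other folding, translocation and degradation genes of the reticulum, 18 were positive and 17 negative with a median of 0.0028. Sil1, a nucleotide exchange factor for BiP, differed by 0.55 (SE 0.20, 95% interval 0.09 to 1.00, adjusted p = 0.222) and Mbtps1, a protease that cuts ATF6, by -0.28 (SE 0.12, 95% interval -0.55 to -0.01, adjusted p = 0.281). Another setting, the mean over its probe sets, put Mbtps1 at 0.14. The 6 measured eIF2 alpha kinase and phosphatase genes had a median of -0.03, with Eif2ak4 (GCN2) at -0.25 (SE 0.12, 95% interval -0.52 to 0.01, adjusted p = 0.320) and the phosphatase subunit Ppp1r15b at -0.21 (SE 0.12, 95% interval -0.47 to 0.06, adjusted p = 0.411). Ppp1r15b was at 0.21 with the mean over its probe sets. Jun and Egr2 were the immediate early genes of smallest p, with differences of 0.43 and -0.70 (adjusted p = 0.302 and 0.311).

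Amino acid transport and charging held the genes closest to passing in these lists. Wars, the tryptophanyl-tRNA synthetase and a gene also known to be induced by interferon-gamma, was 11.59, 11.32, 11.57, 10.98 and 11.30 in allogeneic animals 1 to 5, against 10.80, 10.54, 10.68, 10.55 and 10.61 in syngeneic animals 1 to 5. Every allogeneic value lay above every syngeneic value, as in 4.83% of all genes in either direction. Its difference was 0.72 (SE 0.14, 95% interval 0.41 to 1.02, adjusted p = 0.0553), and it passed under 10 of the 20 other settings. The other 18 measured synthetases lay between -0.09 and 0.26, the highest being Aars at 0.26 (SE 0.11, 95% interval 0.01 to 0.51, adjusted p = 0.280), and the list's median was 0.05. Slc1a5, the ASCT2 glutamine importer, was 11.21, 10.84, 10.77, 10.72 and 11.08 in allogeneic animals 1 to 5, against 11.61, 11.69, 11.30, 11.44 and 11.40 in syngeneic animals 1 to 5. All 5 allogeneic values were lower than any syngeneic one. The difference was -0.56 (SE 0.14, 95% interval -0.86 to -0.26, adjusted p = 0.0995), and it passed under 5 of the 20 other settings. The glycine importer Slc6a9 differed by 0.61 (SE 0.19, 95% interval 0.18 to 1.04, adjusted p = 0.169). Of the 26 measured genes of that list of ATF4 targets, 14 were positive and 12 negative, with a median of 0.13. At an unadjusted p under 0.05 there were 8 of the 26 (30.8%), 5 higher and 3 lower, against 16.9% of all genes.

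**Figure D4:**
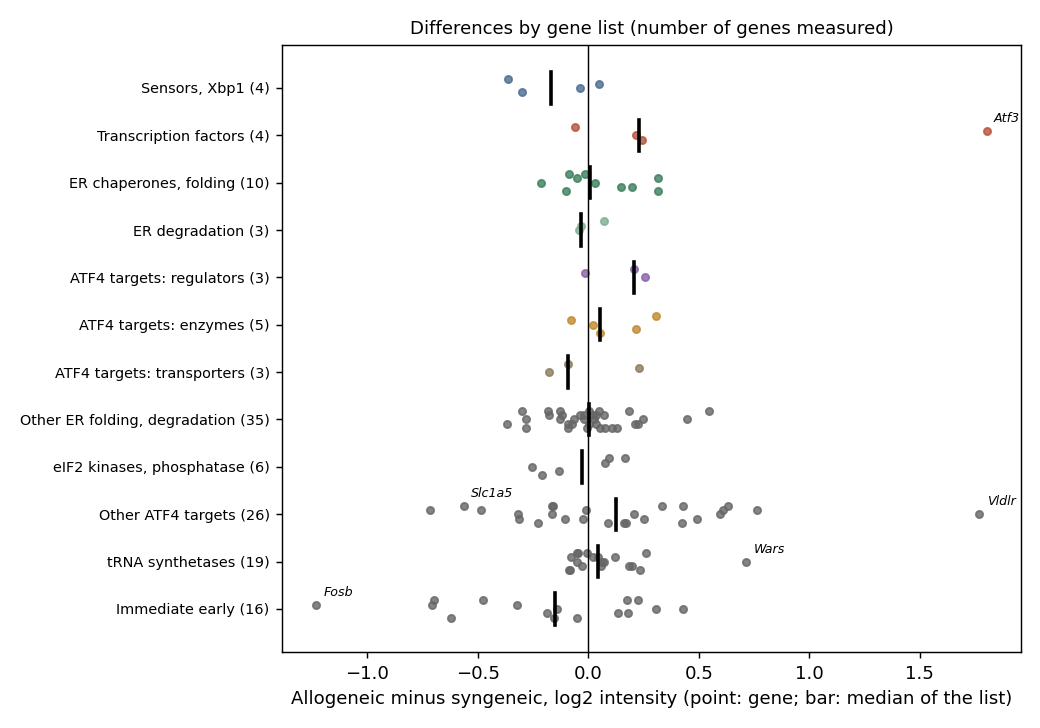
Points are genes and bars are list medians, with the allogeneic minus syngeneic difference in log2 intensity on the horizontal axis and the number of genes measured beside each list name. The list medians lie between -0.17 and 0.23, and Atf3 and Vldlr stand farthest to the right. Vldlr had its highest value, far above its others, in allogeneic animal 3 and was not above background in syngeneic animals 1, 3 and 4.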

How the data were processed

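For each of 45101 probe sets the deposited data give an intensity on a linear scale in each of 10 arrays. Not given in the sources used here is how the authors summarised and scaled them, and per the labels' protocols biotinylated cDNA was made with NuGEN kits. On every array 361 to 461 values stood at exactly 1, and the lower quartile of intensity was 18.7 to 19.5 for allogeneic animals 1, 3 and 4, against 13.8 to 14.4 on the other 7 arrays. Log2 intensities were quantile normalized across the arrays, and those 3 arrays were also left out together. Names came from GEO's platform table, brought up to GRCm38.p6 through gene IDs: 34945 had 1 symbol, 932 several, 9160 none and 64 were controls. For each of 18193 genes the probe set with the highest mean was used, with no filter on low values. Groups of 5 and 5 were compared in limma 3.58.1 (R 4.3.3, lmFit and eBayes, no covariate), adjusted over all genes. The fit was tested on simulated data with the same SD in both groups, so unequal spread between groups was not covered. The number of arrays limits the precision. All adjusted p-values are from limma unless an exact permutation test is named.

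The members, lists and tests were chosen with earlier results of these data known. All members are accounted for. Every value is given for the gene of highest mean level and of smallest p in each role and for the 12 genes of smallest p, and Ern1 was added after its values were seen. Genes of other lists are named for the 2 of smallest p. Alternatives covered normalization, probe set, filters, floor, eBayes settings, array weights, the replicate block and left-out animals.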

Additional observations from a re-analysis of the deposited data

Results flagged for a closer look

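Among 84 groups of 5 animals, 1 gene and 1 group each, 6 had an animal far from the other 4, and chance gives about 1 in 20. Syngeneic animal 4 stood below its group for Xbp1, at 12.52 against 12.96 to 13.13 on the log2 scale. Allogeneic animal 3 stood below its group for Atf3, at 7.07 against 7.77 to 8.05, and above it for Sel1l, at 11.12 against 10.84 to 10.91. For Aars, allogeneic animal 4 was low, at 10.15 against 10.42 to 10.49, and syngeneic animal 2 was high, at 10.36 against 10.01 to 10.10. Allogeneic animal 5 was high for Sil1, at 10.80 against 9.74 to 10.01. Each was above background on all 5 arrays of its group.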

How the results depend on the processing

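The count of 0 passing genes among the 32 held under 17 of 20 other settings. Those 17 include the exact permutation test, by which 0 of all genes passed. They also include the setting with the lower 50% of genes left out, where Atf3 was not tested. The count was 1 (Atf3) with trend and robust eBayes settings, 1 (Atf3) with array weights, and between 0 and 1 when 1 animal was left out, the 1 being Atf3 without syngeneic animal 4. Signs were firm for few genes: 15 of 32 kept 1 sign under every setting and 17 did not, and 10 of the 13 with a difference over 0.2 in size kept it. The median of the transporters, -0.09, was 0.18 without quantile normalization and -0.25 to 0.22 with 1 animal left out, and it rests on Slc7a11, which is near background. The median of the 11 ATF4 targets, 0.05, was 0.18 without quantile normalization and 0.012 to 0.18 with 1 animal left out. The degradation genes' median of -0.03 was 0.12 with the mean over probe sets, and the enzymes' median of 0.05 was 0.17 with array weights. The number of passing tRNA synthetases, 0, was 1 (Wars) without quantile normalization, with the mean over probe sets, with the lower 25% or 50% of genes left out, with a floor of 16, with trend and robust settings, with array weights and without allogeneic animals 1, 3 and 4 (the arrays with a raised low end), and 0 to 1 with 1 animal left out. The number of other passing ATF4 targets, 0, was 1 (Slc1a5) with the mean over probe sets, with the lower 50% left out and with trend and robust settings, 3 (Slc1a5, Eif4ebp1 and Got1) with array weights, 1 (Got1) without allogeneic animals 1, 3 and 4, and 0 to 1 with 1 animal left out. The cause of these changes was not tested. The animal numbers do not pair the samples (correlations of same-numbered deviations -0.08 to 0.07). With them as a replicate block 0 of the 32 genes passed, and 14 genes in all passed against 106 without the block. Over all genes the count ran from 55 to 634 with 1 animal left out (634 without allogeneic animal 1), was 720 with array weights, and 0 by the exact permutation test (6 of the 32 at an unadjusted p under 0.05). Of the 32, 31 and 30 were tested when the lower 25% and 50% of genes were left out, and Slc7a11 is limited by its signal over background.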

Other observations

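Some values of single animals, chosen after they were seen, lay far from the rest. Cebpg, the C/EBP partner of ATF4, was 10.09, 11.17, 11.18, 11.20 and 8.79 on the log2 scale in allogeneic animals 1 to 5, against 11.01, 11.45, 11.19, 9.87 and 11.32 in syngeneic animals 1 to 5. Allogeneic animals 1 and 5 and syngeneic animal 4, which were lowest for Hspa5 and Xbp1 in their groups, were also lowest for Cebpg. Nupr1, a small stress-induced chromatin protein, was 7.85, 9.23, 8.11, 10.10 and 7.19 in allogeneic animals 1 to 5 and 7.24, 8.33, 7.80, 6.72 and 8.57 in syngeneic animals 1 to 5, with its highest value in allogeneic animal 4. Vldlr, a lipoprotein receptor gene, was 6.34, 5.77, 9.50, 6.62 and 5.38 in allogeneic animals 1 to 5, against 4.31, 5.77, 4.49, 4.71 and 5.48 in syngeneic animals 1 to 5. Its value of 9.50 in allogeneic animal 3 stood above all others, and syngeneic animals 1, 3 and 4 were not above background.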
